A study of Mus musculus with 7 samples.

Results

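The mouse Notch receptor genes Notch1, Notch2, Notch3 and Notch4 and the ligand genes Dll1, Dll4, Jag1 and Jag2 were followed through single-cell RNA libraries of skeletal muscle. They were taken by gene symbol, all 8 were found, and they are 8 of the 27998 genes in the count tables. The study made 7 droplet libraries from C56BL/6J mice in 4 groups. Total muscle (2 libraries) held live cells sorted from hindlimb of wild-type mice aged 3 months. For the homeostatic group, 2 libraries of sorted muscle stem cells (MuSCs), the labels give no injury. The injured group, also 2 libraries of MuSCs, was sorted from TE-EDL muscles 60 h after injection of 2 µM notexin, a snake venom toxin that destroys muscle fibres. Primary myoblasts (1 library) were muscle precursors from mice of 3 months, grown for 4 to 5 passages on collagen in medium with 10% horse serum and 2.5 ng/µl bFGF. The labels do not say how many animals or cultures stand behind a library, so p-values measure only the spread between these samples, which may be technical.

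Notch receptors sit in the cell membrane and are switched on by ligands on neighbouring cells. A ligand that is pulled by its own cell's endocytosis exposes the receptor to a sheddase and then to gamma-secretase, and the freed intracellular domain enters the nucleus, binds RBPJ and turns on genes of the Hes and Hey families. In skeletal muscle the pathway is known for holding stem cells in quiescence and for delaying differentiation, and in blood vessels for specifying arteries and for the contact between endothelial and mural cells.

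The libraries held 1295 to 4429 barcodes each, and 14945 of 15474 cells were used. Of these, 10320 fell in clusters named myogenic from their markers. The myogenic cells numbered 92 and 126 in the total muscle libraries, 1492 and 1364 in the homeostatic, 1157 and 1862 in the injured and 4227 in the myoblast library. Their summed UMIs (unique molecular identifiers, 1 per captured transcript) ranged from 341824 in total muscle 1 to 108168974 in the myoblasts. At least 10 of the 11 myogenic markers found in the files had UMIs in the myogenic cells of every library. The injured libraries shared 253 barcodes with each other, against 1 to 16 in all other pairs of libraries. The members' calls that compare injured cells are therefore also given without cells whose barcode occurs in another library. One myogenic cluster was also led by haemoglobin genes. It held 169 of the 218 myogenic cells of total muscle and 826 homeostatic cells. Levels are CPM, the UMIs of a gene in the summed cells scaled to a common total, from a method that counts the 3′ end of transcripts. Fewer cells of a kind and less RNA per cell cannot be told apart in such sums.

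The promoters of Dll1 and Jag1 are shown because Dll1 was the member that moved with the differentiation state of myogenic cells, and because these 2 genes were the members with the E-box CAGCTG, a sequence that myogenic factors such as MyoD and myogenin bind, before a start site. RefSeq lists 9 promoters for the 8 members in GRCm38.p6, and the 250 bases before each start were searched on both strands. Capitals mark CAGCTG, which lies 132 bases upstream of the outer RefSeq start of Dll1 and 82 bases upstream of the RefSeq start of Jag1. CAGCTG occurs in 13.0% of all 32851 promoters of that length, so a match by itself is a description. The looser E-box CANNTG, which includes CAGCTG, occurs in 66.2%. The core TGGGAA, to which RBPJ binds, was not in these windows for any member and occurs in 21.6% of all promoters.
Dll1, inner start (chr17:15375824-15376073, minus strand): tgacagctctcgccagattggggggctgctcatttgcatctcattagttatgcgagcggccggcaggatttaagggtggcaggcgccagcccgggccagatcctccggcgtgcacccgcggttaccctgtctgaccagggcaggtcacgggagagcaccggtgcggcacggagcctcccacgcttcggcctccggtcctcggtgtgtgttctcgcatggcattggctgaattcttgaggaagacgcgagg
Dll1, outer start (chr17:15376933-15377182, minus strand): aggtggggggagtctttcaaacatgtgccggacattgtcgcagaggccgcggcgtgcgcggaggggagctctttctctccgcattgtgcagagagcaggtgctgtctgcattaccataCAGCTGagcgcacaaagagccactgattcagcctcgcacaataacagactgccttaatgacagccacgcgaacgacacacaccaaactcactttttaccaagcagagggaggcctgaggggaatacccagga
Jag1 (chr2:137116521-137116770, minus strand): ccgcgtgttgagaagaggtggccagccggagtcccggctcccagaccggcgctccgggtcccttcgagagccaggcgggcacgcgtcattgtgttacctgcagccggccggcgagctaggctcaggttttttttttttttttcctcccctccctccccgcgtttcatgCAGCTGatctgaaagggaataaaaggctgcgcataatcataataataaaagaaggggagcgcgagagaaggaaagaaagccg

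In the GRCm38 annotation the receptor genes lie at chr2:26457903-26516663 (Notch1, minus strand), chr3:98013527-98150361 (Notch2, plus), chr17:32120820-32166852 (Notch3, minus) and chr17:34564268-34588503 (Notch4, plus). The ligand genes lie at chr17:15367354-15376872 (Dll1, minus), chr2:119325784-119335962 (Dll4, plus), chr2:137081456-137116644 (Jag1, minus) and chr12:112907819-112929776 (Jag2, minus). The RefSeq starts behind the promoter windows differ in part from the ends of these genes. In this annotation the windows of Notch1, Jag2 and the inner Dll1 start lie within the gene. Those of Notch2, Notch4 and Jag1 overlap it, and the CAGCTG of Jag1 lies within it. All members are protein coding, and a count can come from any exon of the gene. Genes on the opposite strand cover the 3′ end of Notch1 (0610009E02Rik and Gm13568) and of Notch3 (Gm17276), and A930024N18Rik overlaps Dll1. Whether the counting used strand is not given in the sources used here, and without it reads of a gene and its opposite neighbour cannot be told apart.

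The injury comparison asks how sorted MuSCs differ in these genes 60 h after damage. Injured cells held far more Notch2 and Dll1 RNA than homeostatic cells and far less Notch3 and Notch1, while Jag1 was lower by a smaller margin. Injury and any other trait particular to the injured libraries cannot be told apart in this design. Quasi-likelihood tests in edgeR were adjusted over all 10629 genes tested by the method of Benjamini and Hochberg, and 75.7% of the genes were called at an adjusted p under 0.05, 38.4% higher and 37.4% lower in injured cells. The 5 members that passed the filter on low counts were all called, 2 higher and 3 lower, which is to be read against that share. Of the higher ones, Dll1 passed only with the injured libraries, where it is high. Its place in this count was thus in part set by the filter. Notch4, Dll4 and Jag2 did not pass the filter.

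Notch2, a receptor of satellite cells that also acts in many other tissues, had 56.4 and 48.7 CPM in the homeostatic libraries and 236.8 and 382.2 CPM in the injured libraries. Both injured libraries lay above both homeostatic ones, at a log2 difference of 2.85 ± 0.21 (SE, adjusted p = 1.23e-08). The myogenic cells of total muscle, at 38.0 and 47.2 CPM, and the myoblasts, at 11.9 CPM, lay below the homeostatic libraries. Without shared barcodes the log2 difference was 2.86.

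Notch3, a receptor known in satellite cells and in vascular smooth muscle, had 99.7 and 77.3 CPM in homeostatic cells and 4.68 and 6.31 CPM in injured cells. The groups were far apart, and Notch3 fell by 3.73 ± 0.22 on the log2 scale (adjusted p = 9.56e-10). It had 35.1 and 40.5 CPM in the myogenic cells of total muscle and 8.38 CPM in the myoblasts. The difference was -3.61 without shared barcodes.

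Notch1, the receptor most often studied in satellite cell activation, had 52.9 and 39.4 CPM in homeostatic and 7.19 and 4.62 CPM in injured cells. It fell by 2.64 ± 0.25 (log2, adjusted p = 1.56e-07), or by 2.73 without shared barcodes. The myoblast library, at 40.1 CPM, lay between the homeostatic libraries, and total muscle, at 17.6 and 27.0 CPM, between the homeostatic and the injured ones. So the receptors moved in opposite directions with injury, Notch2 up and Notch1 and Notch3 down, in 2 of 2 libraries each.

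Dll1, a ligand of the Delta class, had 4.97 and 0.962 CPM in homeostatic cells, 17 and 3 UMIs, and 19.4 and 21.9 CPM in injured cells. It rose by 3.04 ± 0.38 (log2, adjusted p = 3.09e-06), or by 2.99 without shared barcodes. The size rests on few homeostatic UMIs: leaving out each library in turn gave log2 values from 2.31 to 4.66, all called. Total muscle had 0 and 8.99 CPM, from 0 and 4 UMIs, which overlapped the homeostatic libraries and lay below both injured ones. The 95% counting interval reached 10.8 CPM in total muscle 1. In total muscle 2 it reached 23.0 CPM, into the range of the injured libraries.

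Jag1, a ligand of the Jagged class, had 40.4 and 59.6 CPM in homeostatic and 24.8 and 25.9 CPM in injured cells. It fell by 0.68 ± 0.20 (log2, adjusted p = 0.00576). The difference was -0.68 without shared barcodes. The call was lost without homeostatic MuSC 2, at -0.41 and an adjusted p of 0.0868, which leaves a homeostatic group of 1 library.

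The remaining members were at or near 0 in stem cells. Dll4, the ligand best known from arteries and sprouting vessels, had no UMI in the myogenic cells of 6 libraries and 2 UMIs in the myoblasts. The 95% counting interval of 0 UMIs reached 0.421 CPM in injured MuSC 1 and 10.8 CPM in total muscle 1. Notch4, a receptor of endothelial cells, had no UMI in the homeostatic libraries, 4 and 3 UMIs in the injured and 61 in the myoblasts (0.564 CPM). Jag2, the other Jagged ligand, had none in total muscle or homeostatic cells, 4 and 5 UMIs in the injured libraries and 636 in the myoblasts (5.88 CPM).

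**Figure D1:**
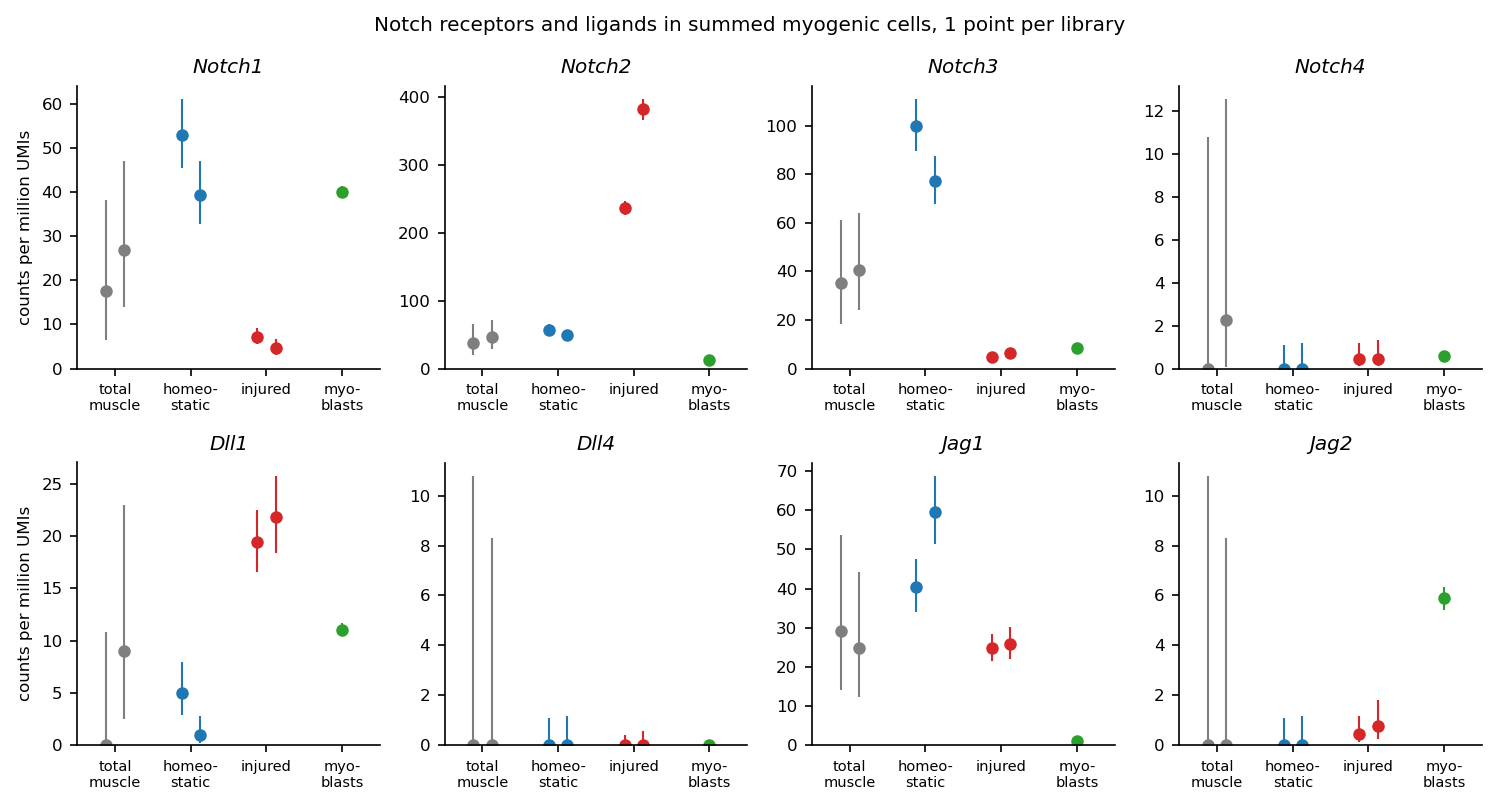
Level of each member (CPM, summed myogenic cells; each panel has its own linear axis) in the 7 libraries, 1 point per library, coloured by group, with vertical lines for exact 95% Poisson intervals that cover counting error only. Notch2 reaches 236.8 and 382.2 CPM in the injured libraries and at most 56.4 elsewhere, while Notch3 is highest in the homeostatic libraries at 77.3 and 99.7 CPM.

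Another property of the cells moved with Notch2 and Jag1 in all groups: the base content of the 16-base cell barcode, a technical label that has no link to a cell's identity. In injured MuSC 1, Notch2 had 424.8 CPM in cells with at most 7 G or C bases in the barcode, 176.6 with 8 and 85.3 with at least 9. In injured MuSC 2 the values were 700.7, 296.5 and 137.8 CPM, in homeostatic MuSC 1 they were 105.5, 38.2 and 25.4, and in homeostatic MuSC 2 they were 92.2, 32.4 and 20.2. The level fell with G and C content in each of these libraries, and the cause was not tested. In total muscle Notch2 had 104.6 and 104.9 CPM in GC-poor and 5.62 and 0 CPM in GC-rich cells (11 and 20 against 1 and 0 UMIs), and Jag1 95.1 and 42.0 CPM against 0 and 7.20 CPM. The ratio of GC-poor to GC-rich cells for Notch2 was 2.91 to 5.09 over the 5 libraries with enough UMIs. For Jag1 it was 1.53 to 3.13 over 5 libraries. Notch1 (0.729 to 1.32), Notch3 (0.654 to 1.41) and Dll1 (0.966 to 1.28) had ratios on both sides of 1. Among 4357 genes with at least 50 UMIs in each of the 4 sorted libraries, Notch2 ranked 3 and Jag1 ranked 28 by this ratio, with mean log2 ratios of 2.22 and 1.34. The median gene had -0.059, and 95% of genes lay between -0.34 and 0.49.

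The injury difference was there at every barcode content. The mean Notch2 level of the injured libraries was 5.69 times that of the homeostatic libraries in GC-poor cells, 6.71 times at 8 bases and 4.90 times in GC-rich cells. For Jag1 the ratios were 0.497, 0.601 and 0.401. In none of the 3 classes did the homeostatic and injured libraries overlap for Notch1, Notch2, Notch3, Dll1 or Jag1. The injury test was run among barcodes with 8 or more G or C bases, which joins the upper classes. It gave 2.80 for Notch2 and -0.72 for Jag1 on the log2 scale, both called.

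**Figure D2:**
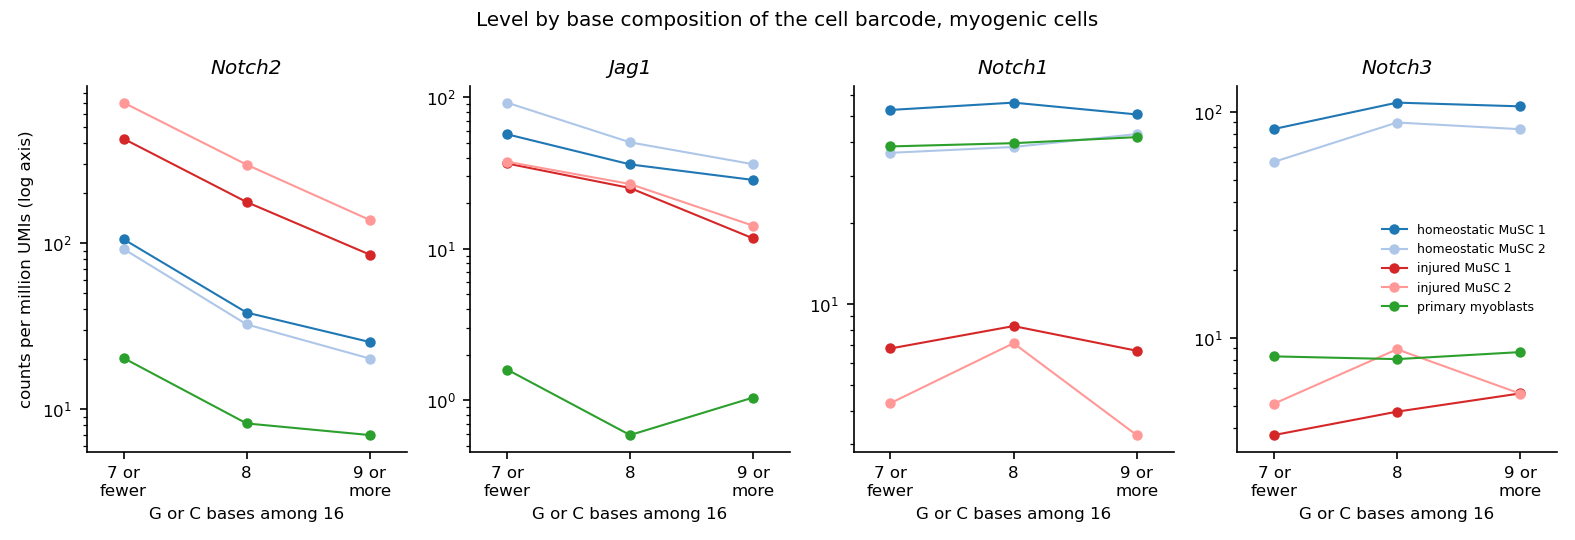
Level of Notch2, Jag1, Notch1 and Notch3 (CPM, myogenic cells) in cells with at most 7, 8, and at least 9 G or C bases in the 16-base cell barcode, 1 line per sorted or cultured library and a log axis of its own in each panel. Notch2 drops from 424.8 to 85.3 CPM in injured MuSC 1 and from 105.5 to 25.4 CPM in homeostatic MuSC 1 along this axis.

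The markers of other cells in the myogenic clusters differed between the groups as well. The 5 erythroid markers summed to 3838 and 935.3 CPM in the homeostatic libraries, with UMIs of all 5, and to 3.31 and 2.16 CPM in the injured libraries, with UMIs of 3. Of 10 fibro-adipogenic markers 8 or 9 had UMIs in each of these libraries, with sums of 1097 to 1122 CPM in the homeostatic and 31.1 to 36.7 CPM in the injured ones. Without the homeostatic cells of the haemoglobin cluster the injury differences were -2.63 for Notch1, 2.87 for Notch2, -3.75 for Notch3, 3.06 for Dll1 and -0.61 for Jag1 on the log2 scale, all called. Mural markers (6 to 9 of 10 with UMIs) summed to 189.5 and 163.5 CPM in the homeostatic and 24.8 and 31.3 CPM in the injured libraries, beside Notch3, the member highest in mural cells. Lymphatic endothelial markers (2 to 4 of 6) went from 1500 and 1698 to 201.9 and 233.7 CPM, and mature myofibre markers (7 to 9 of 9) from 21.4 and 35.6 to 209.0 and 349.5 CPM. Clusters of 1490 and 1386 injured cells were led, against other cells of total muscle, by mt-Atp6, Rps12-ps3 and mt-Co3. These are 2 mitochondrial genes and a ribosomal pseudogene. The part of these markers and genes in the results was not tested.

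A list of 49 other Notch pathway genes, grouped by role, was read in the same fit. Of 35 tested, 10 were higher and 17 lower in injured cells, which is 77.1% called against 75.7% of all genes, with a median log2 difference of -0.42 against 0.02. Among the transcriptional targets, 2 of 3 tested fell. Hey1 went from 62.3 and 61.6 CPM to 2.85 and 2.77 CPM (log2 -4.15 ± 0.23) and Heyl from 40.7 and 18.0 to 1.26 and 2.31 CPM (-3.80 ± 0.41). Hes1, the third, had 105.3 and 29.8 CPM in homeostatic and 95.5 and 77.3 CPM in injured cells and was not called; it is named here after its values were seen.

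The machinery that cleaves the receptor split in direction. Of 6 tested gamma-secretase genes 3 rose and 2 fell. Aph1a, a scaffold subunit, rose from 1.75 and 0.962 to 33.1 and 34.8 CPM (log2 4.89 ± 0.32) and Psenen, which activates the complex, from 66.7 and 63.8 to 135.1 and 142.0 CPM (1.38 ± 0.15). Of 2 sheddase genes Adam10 rose (1.38 ± 0.22) and the other was not called. None of the 9 nuclear complex genes rose and 6 fell, among them the co-regulator Snw1 (-1.34 ± 0.15), and of 7 inhibitors and turnover genes 6 fell, with Dtx3 at -2.94 ± 0.22. Of the ligand ubiquitin ligases, which start ligand endocytosis, Mib1 rose (0.80 ± 0.20) and Mib2 fell (-2.75 ± 0.48), with 3 of 4 higher and 1 lower. The non-canonical ligand Dlk2 had no UMI in homeostatic cells and 97 and 62 UMIs in injured cells, at least 22.7-fold higher against a floor of 3 counts over the group. Aph1a and Dlk2 passed the filter on low counts only with the injured libraries, and Heyl and Mib2 only with the homeostatic ones, where each is high. Their directions were thus in part set by the filter.

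The sort comparison sets the homeostatic libraries against the myogenic cells of total muscle, and asks whether uninjured myogenic cells taken through a MuSC sort carry other levels. In this comparison 8.4% of 7997 genes were called, 4.36% higher and 4.04% lower in the sorted cells. Of the 4 members tested, Notch3 was higher in the homeostatic libraries, by 1.10 ± 0.29 (log2, adjusted p = 0.0257): 99.7 and 77.3 against 35.1 and 40.5 CPM. The call was lost with DESeq2 (adjusted p = 0.102) and, by edgeR, among barcodes with 8 or more G or C bases (0.05). It was also lost without either total muscle library, which leaves a group of 1 library. Leaving out each library in turn gave log2 values from 0.90 to 1.33. The difference of Notch1 was 0.90 (95% interval 0.11 to 1.70), of Jag1 0.78 (0.01 to 1.55) and of Notch2 0.17 (-0.44 to 0.79). These 3 were not called, at adjusted p-values of 0.166, 0.223 and 0.787, although Notch1 passed without homeostatic MuSC 2 (0.0304) and Jag1 without homeostatic MuSC 1 (0.0328). Among barcodes with 8 or more G or C bases the difference was 2.04 for Notch2 (adjusted p = 0.0896) and 2.43 for Jag1 (0.055). Both values lay above these intervals and rest on few total muscle UMIs. With 8 such bases total muscle 1 and 2 held 1 and 1 UMIs of Notch2 and 0 and 2 of Jag1. With at least 9 they held 1 and 0 of Notch2 and 0 and 1 of Jag1.

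Other cells stood beside the sort comparison as well. Erythroid markers summed to 56650 CPM in total muscle 1 and to 80.9 CPM in total muscle 2, and fibro-adipogenic markers to 1708 and 1733 CPM, above the homeostatic libraries. Mature myofibre markers summed to 339.4 to 373.1 CPM in total muscle and 21.4 to 35.6 CPM in homeostatic cells. Their part in these values was not tested. Of 30 pathway genes tested none was higher and 2 were lower in the sorted cells. These were Hes1 and Mfap5. Hes1 had 108.2 and 305.6 CPM in total muscle and 105.3 and 29.8 CPM in the homeostatic libraries (log2 -1.75 ± 0.45), so that total muscle 1 and homeostatic MuSC 1 were nearly equal. Mfap5, a matrix protein that is also a marker of fibroblasts, had 35.1 and 49.4 CPM in total muscle and 1 and 5 UMIs in the homeostatic libraries (-5.56 ± 0.57). It passed the filter on low counts only with the total muscle libraries, where it is high.

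Cultured myoblasts were compared with both stem cell groups in 1 fit over 5 libraries. The myoblast library has no replicate, so its spread is assumed to equal that of the other groups, and its 2 comparisons share the library and the fit. In the myoblasts mature myofibre markers summed to 3067 CPM, mural markers to 1039 CPM and fibro-adipogenic markers to 112.3 CPM, against the sums given above for the stem cells, and their part in the results was not tested. Against injured cells 59.5% of 12427 genes were called (34% higher in the myoblasts, 25.6% lower), and against homeostatic cells 71.5% (39.3% higher, 32.2% lower). Without scaling by TMM (edgeR's correction for library composition) the split of calls moved from 4220 higher and 3179 lower to 7355 and 1704 against injured cells, from 4887 and 3997 to 5930 and 3164 against homeostatic cells, and in the sort comparison from 349 and 323 to 467 and 244. The median gene shifted by 0.70, 0.38 and 0.12 on the log2 scale, and by -0.29 in the injury comparison.

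Among the receptors, Notch2 had its lowest level in the myoblasts, 11.9 CPM, with a log2 difference of -5.40 ± 0.30 against injured (adjusted p = 1.48e-10) and -2.53 ± 0.27 against homeostatic cells. Notch1, at 40.1 CPM, was 2.03 ± 0.25 higher than in injured cells (adjusted p = 3.37e-06) and 0.59 ± 0.24 lower than in homeostatic cells (0.0343). The second of these calls was lost under 5 of 14 alternatives, among them no scaling (-0.21, adjusted p = 0.429) and the fit without homeostatic MuSC 1 (-0.34, 0.214). Notch3, at 8.38 CPM, differed from injured cells by -0.07 (95% interval -0.62 to 0.48, adjusted p = 0.825) and lay 3.79 ± 0.25 below homeostatic cells. Without scaling Notch3 was higher than in injured cells, by 0.63 (adjusted p = 0.0327). Without shared barcodes the differences from injured cells were -5.41 for Notch2, 2.12 for Notch1 and -0.18 for Notch3.

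Among the ligands, Jag1 fell to 1.11 CPM in the myoblasts, -5.21 ± 0.29 against injured (log2, adjusted p = 1.57e-10) and -5.87 ± 0.30 against homeostatic cells. Jag2 moved the other way, 2.60 ± 0.49 above injured cells (adjusted p = 0.000292, or 0.17 with DESeq2) and at least 12.8-fold above homeostatic cells, which had no UMI. Dll1, at 11.1 CPM, was 1.60 ± 0.29 lower than in injured cells (log2, adjusted p = 0.000143) and 1.47 ± 0.42 higher than in homeostatic cells (0.0044). Without homeostatic MuSC 2 the latter was 0.75 and not called (0.0754). Without shared barcodes the differences from injured cells were -5.19 for Jag1, 2.36 for Jag2 and -1.58 for Dll1. In all, 5 of 6 tested members were called against injured cells and 6 of 6 against homeostatic cells. Jag2 is in both counts, although it passed the filter on low counts only through the myoblast library, where it is high. Of 40 tested pathway genes 15 were higher and 12 lower than in injured cells, and 12 higher and 17 lower than in homeostatic cells. The target genes differed in direction, with Hes1 at 228.0 CPM above the homeostatic level (1.36 ± 0.37) and Hey1 at 0.952 CPM far below it (-6.40 ± 0.28).

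Within the injured and myoblast libraries, cells were split by Myog, the transcription factor that marks commitment to differentiation, according to whether a cell had a Myog UMI after thinning to 1000 UMIs. Dll1 was the member that differed. It had 47.5 CPM in the 85 cells with Myog and 17.2 CPM in the 1072 cells without in injured MuSC 1. In injured MuSC 2 it had 48.4 CPM (194 cells) and 19.0 CPM (1658 cells), and in the myoblasts 36.0 CPM (612 cells) and 6.94 CPM (3615 cells). Cells with Myog were higher in each of the 3 libraries, by 2.76, 2.55 and 5.19 times.

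In the fit with the library as a block, Dll1 was 1.87 ± 0.24 higher in cells with Myog (log2, edgeR adjusted p = 0.000184), in a comparison that called 9.87% of 10846 genes, 6.05% higher and 3.82% lower. It was 1.98 without shared barcodes and 1.42 in the injured libraries alone, called in both. Without the library block it was 1.53 and not called (adjusted p = 1.0), and edgeR called no gene, with 480 of 10846 at an unadjusted p under 0.05 against 654 calls by DESeq2 with the block. The difference between the myoblast and the injured ratio was 1.05 (log2, edgeR adjusted p = 0.068). Median UMIs per cell were close in both states, 7286 and 7464 in injured MuSC 1, 3140.5 and 3298.5 in injured MuSC 2 and 24154.5 and 24779 in the myoblasts, with Myog and without.

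The other 4 tested members were not called. Notch2 had 240.6 CPM with Myog and 236.5 without in injured MuSC 1, and 362.1 and 384.1 in injured MuSC 2, and its log2 difference of -0.11 had an interval of -0.35 to 0.12. The intervals were wider for Notch1 (0.19, -0.38 to 0.77), Notch3 (-0.33, -1.05 to 0.40) and Jag1 (-0.43, -1.11 to 0.26). Jag1 shares the CAGCTG match of the promoters shown and was at 9.50 CPM (6 UMIs) with Myog and 26.0 CPM without in injured MuSC 1, and at 28.1 and 25.7 CPM in injured MuSC 2. Of 37 pathway genes tested 2 were higher and none lower in cells with Myog. Neurl1a, a ubiquitin ligase for ligands, had 9.50 against 3.81, 21.9 against 4.79 and 45.3 against 1.51 CPM in the 3 libraries (3.52 ± 0.58). Dner, a non-canonical ligand of neurons, had 11.2 against 2.46 CPM in the myoblasts (2.25 ± 0.48) and 3 UMIs in all in the injured libraries.

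**Figure D3:**
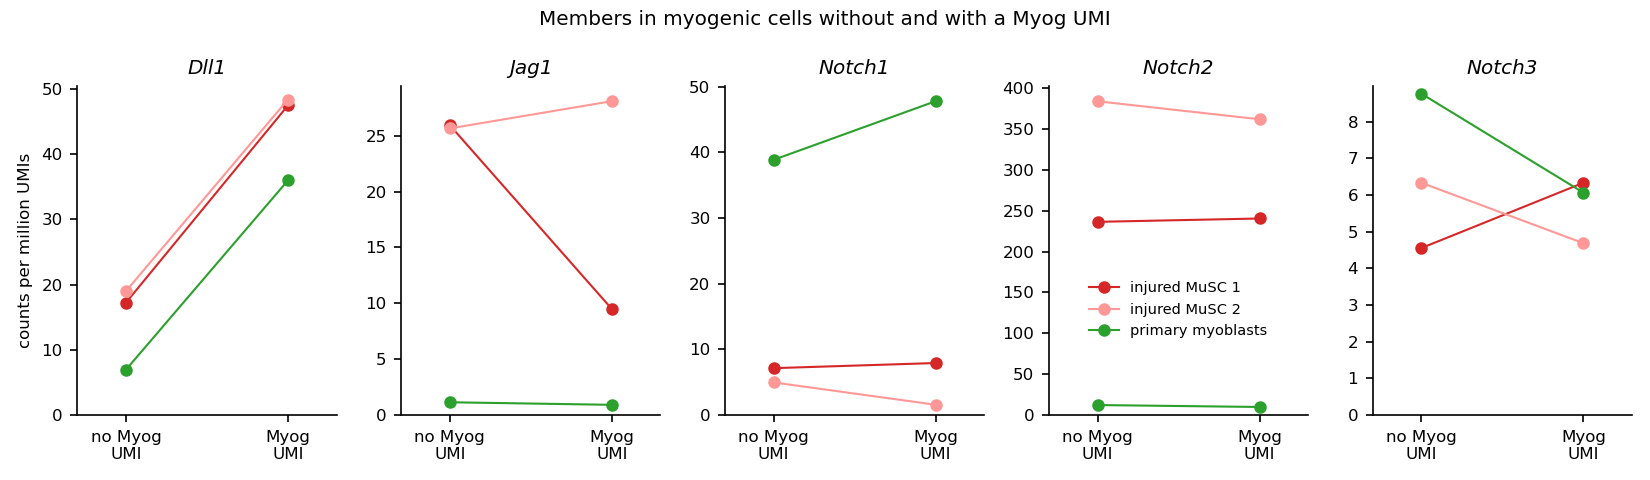
Level (CPM) of members in myogenic cells without and with a Myog UMI after thinning, 1 line per library for the 2 injured MuSC libraries and the primary myoblasts. Dll1 is higher with Myog in all 3 libraries (47.5 against 17.2, 48.4 against 19.0 and 36.0 against 6.94 CPM).

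Which cells of uninjured muscle hold the receptors and ligands was read from total muscle, where cells were gated by fixed markers into 10 types, each with at least 20 cells in both libraries. None of the gates uses a Notch pathway gene. Each type was tested against the summed cells of the other 9 types, with the library as a block, over 9228 genes. Endothelial cells had 6 of 7 tested members higher and 1 lower, where 62.1% of all genes were called (30.2% higher and 31.9% lower). Of the higher ones, Notch4, Dll1 and Dll4 passed the filter on low counts only with the endothelial sums, where they are high. Their place in this count was thus in part set by the filter. Types of a library share that library, and these p-values carry the spread between 2 libraries only. Where the other types were given 1 common mean and their own spread entered the error, endothelial Dll4 (adjusted p = 0.00167), Notch4 (0.00697) and Notch1 (0.0306) were the endothelial calls that held, and of all calls in the other types the lower Notch2 of mature myofibres.

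Dll4 had 89.6 and 102.1 CPM in endothelial cells, 398 and 491 of them, and at most 39.0 CPM in the other types. It was 6.51 ± 0.26 higher than in the other cells (log2, edgeR adjusted p = 1.52e-132). Mural cells, the pericytes and smooth muscle cells that wrap vessels, followed with 39.0 and 17.2 CPM, from 5 and 2 UMIs. Macrophages or monocytes, tenocytes (tendon cells) and fibro-adipogenic cells (connective tissue progenitors) had 1 to 4 UMIs in all each, and the other 5 types had none.

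Notch4 had 31.1 and 31.4 CPM in endothelial cells (5.32 ± 0.43, adjusted p = 9.59e-34). No other type had more than 4 UMIs over both libraries, and myogenic cells, macrophages or monocytes, T or NK cells and mature myofibres had none. Notch1 had 128.9 and 160.8 CPM in endothelial cells (3.33 ± 0.14, adjusted p = 2.02e-114). It had UMIs in all 10 types, in the order endothelial, mural (77.9 and 77.3 CPM), glial (nerve support cells), macrophage or monocyte, T or NK, myogenic (19.0 and 24.8), B, fibro-adipogenic, tenocyte and mature myofibre (0 and 5.41). In that order 6 of 9 neighbours had ranges that did not overlap. The mural values include cells with endothelial markers, which are taken up below.

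Dll1 had 59.4 and 50.04 CPM in endothelial cells (4.75 ± 0.28, adjusted p = 3.5e-63). It had 0 and 27.3 CPM in macrophages or monocytes, with all 11 UMIs from total muscle 2 and none under a stricter gate, and 0 and 7.44 CPM in myogenic cells. Jag2, with 40 UMIs over all types, was not tested, and 34 of them lay in endothelial cells (14.6 and 12.01 CPM). The endothelial cells thus held the highest mean level of both Delta ligands, of Jag2 and of Notch1 and Notch4 among the 10 types.

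Notch2 had the opposite pattern. It was at 9.14 and 4.67 CPM in endothelial cells, 3.21 ± 0.26 below the other cells (log2, adjusted p = 6.84e-35). Mature myofibres had no UMI of Notch2, and the floor of 3 counts there was 10.0 CPM over both libraries. Notch2 was higher than in the other cells in tenocytes (86.1 and 113.0 CPM, 1.25 ± 0.14), macrophages or monocytes (79.5 and 123.9 CPM, 1.18 ± 0.25) and fibro-adipogenic cells (64.7 and 69.3 CPM, 0.82 ± 0.11). Of all genes 42.7% were called in tenocytes (19.3% higher, 23.4% lower), 37.8% in macrophages or monocytes (16.7% and 21.1%) and 64.4% in fibro-adipogenic cells (31% and 33.3%). Tenocytes had 1 member higher and 5 lower, fibro-adipogenic cells likewise, and macrophages or monocytes 2 higher and 1 lower. The lower ones included Dll1 and Dll4 in tenocytes and fibro-adipogenic cells, and Notch4 in the latter, which passed the filter only with the endothelial sums. Myogenic cells, at 49.3 and 52.1 CPM, did not overlap mural cells below them and overlapped B cells above them.

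Notch3 was highest in mural cells, at 233.8 and 180.3 CPM (4.86 ± 0.41, adjusted p = 3.84e-12), in a type with 2 members higher and none lower, where 12.7% of genes were called (5.85% higher, 6.87% lower). Myogenic cells came next with 41.7 and 39.7 CPM (2.43 ± 0.47, adjusted p = 1.29e-06), with 45.6% of genes called, 19.2% higher and 26.4% lower,, then endothelial cells with 21.0 and 25.4 CPM, and these 3 ranges did not overlap. Fibro-adipogenic cells had 2.67 and 2.11 CPM, and macrophages or monocytes, T or NK cells and mature myofibres had no UMI. Notch3 was called higher in endothelial cells (1.82 ± 0.29), but among endothelial cells without a mural marker its difference was 0.01 (adjusted p = 0.993).

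The overlap of markers between the vascular types stands beside these values. A cell is called without a marker of a list if no gene of that list lay above its mean over total muscle cells. Such a cell can still hold UMIs of these genes. Of 41 and 46 mural cells 11 and 12 had no endothelial marker in this sense, and all 10 endothelial markers had UMIs in mural cells, at a sum of 2743 and 1589 CPM. In the 11 and 12 mural cells without an endothelial marker Notch3 was at 263.3 and 110.4 CPM (8 and 4 UMIs) and Dll4 and Notch4 had no UMI. Notch1 was at 32.9 and 55.2 CPM in them (1 and 2 UMIs), which overlaps glial cells at 35.6 and 55.95 CPM. Jag1 was at 32.9 and 82.8 CPM (1 and 3 UMIs). The test on these few cells gave a difference of 5.11 for Notch3 that was not called (adjusted p = 0.579). In that setting edgeR called no gene in mural cells, with 684 of 9415 genes at an unadjusted p under 0.05, and DESeq2 called 598 genes on all mural cells.

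Jag1, like Notch3, had its highest mean level among the 10 types in mural cells, with 93.5 and 68.7 CPM (2.01 ± 0.49, adjusted p = 0.00315). The call was lost with DESeq2 (0.0502) and without cells holding an endothelial marker (0.724). Endothelial cells had 45.7 and 40.0 CPM (1.49 ± 0.21, adjusted p = 3.54e-12), macrophages or monocytes 26.5 and 61.9 CPM (1.46 ± 0.36) and myogenic cells 34.1 and 27.3 CPM. B and T or NK cells had 1.20 to 3.52 CPM, and mature myofibres, at 0 and 5.41 CPM, overlapped the latter. B cells and T or NK cells each had 6 members lower and none higher than the other cells. In both, Notch4, Dll1 and Dll4 were among the lower ones. These passed the filter on low counts only with the endothelial sums, and the other cells include the endothelial cells, so these lower calls were in part set beforehand. Of all genes 69.4% were called in B cells (28.9% higher, 40.4% lower) and 58.8% in T or NK cells (23.9% and 35%). Glial cells had no member called by edgeR of 7 tested, where 13.4% of genes were called (4.45% higher, 8.94% lower). Mature myofibres had Notch1 and Notch2 lower, where 33.1% were called (14% and 19.1%).

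**Figure D4:**
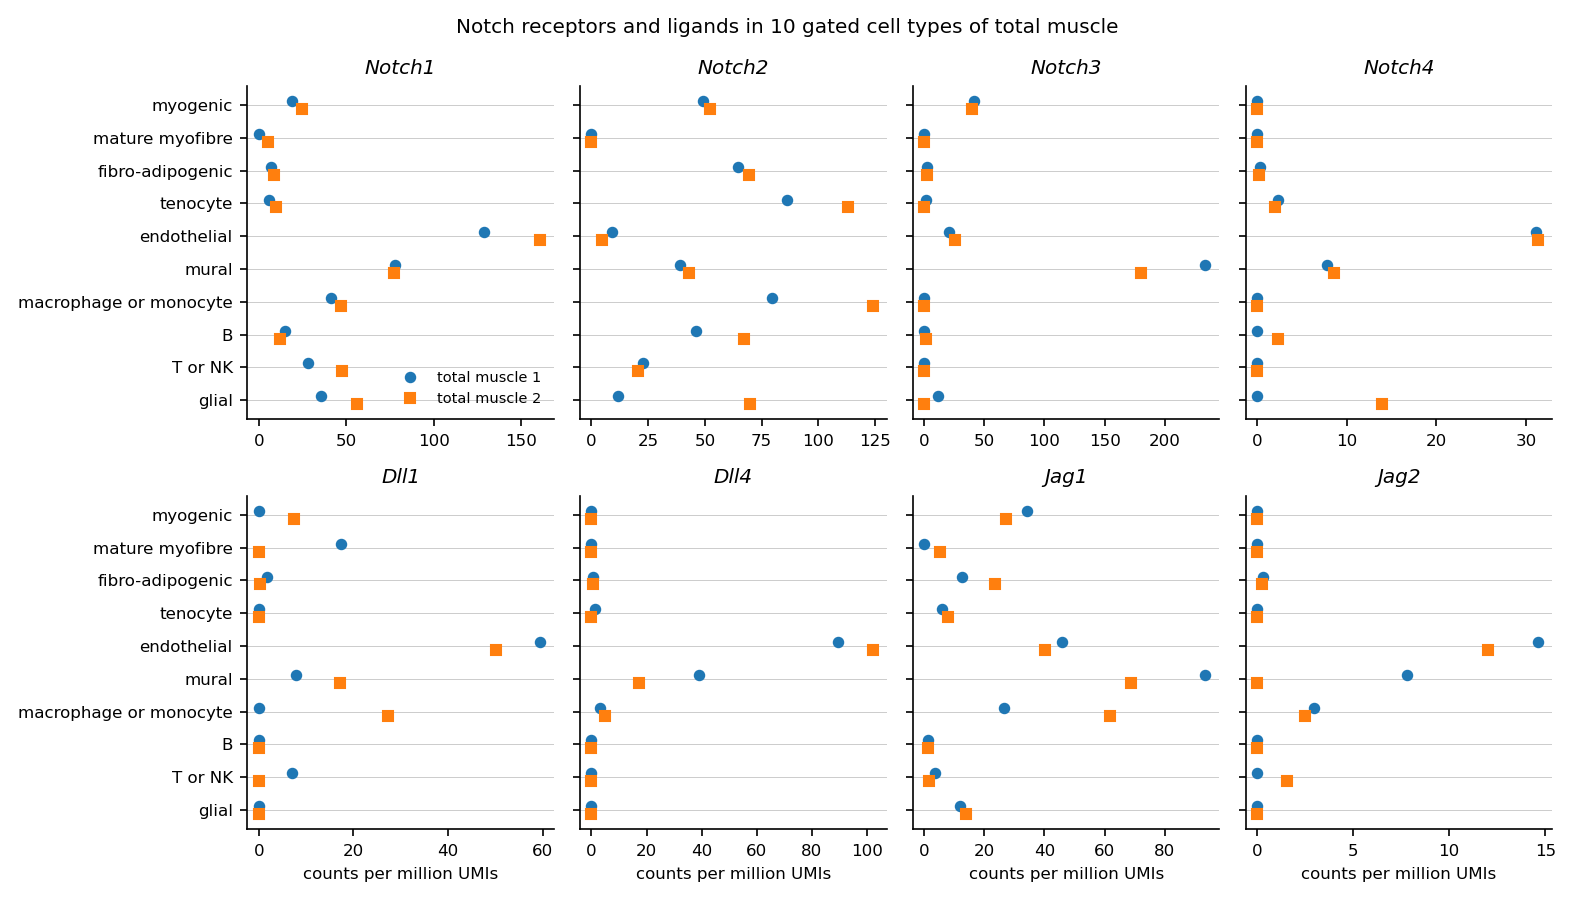
Level of each member (CPM) in the 10 gated cell types of total muscle, 1 point per library. Dll4, Notch4, Dll1 and Notch1 peak in endothelial cells (89.6 and 102.1 CPM for Dll4) and Notch3 in mural cells (233.8 and 180.3 CPM).

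The other pathway genes were read in the same fits. In endothelial cells 13 of 36 tested were higher and 11 lower. The targets Hes1 (1165 and 1031 CPM, log2 1.72 ± 0.07), Nrarp (234.0 and 269.6 CPM, 5.37 ± 0.15) and Hey1 (55.8 and 85.4 CPM, 3.82 ± 0.22) were higher. So were Mfng (2.21 ± 0.24) and Lfng (0.73 ± 0.21), Fringe enzymes that set which ligand a receptor prefers, and the sheddase Adam10 (1.31 ± 0.20). In mural cells 4 were higher and 2 lower, with Heyl (148.1 and 103.0 CPM, 4.14 ± 0.49), Nrarp (2.55 ± 0.33) and Hes1 (1.30 ± 0.24) among the higher ones. In myogenic cells Heyl was higher (2.58 ± 0.50) and Hes1 lower (-0.90 ± 0.13) than in the other cells, and Nrarp, a negative regulator that Notch itself induces, had no UMI.

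Endothelial cells were further gated by fixed markers into arterial (35 and 52 cells), capillary (247 and 310) and venular (42 and 63) cells, and each subtype was tested against the mean of the other 2 over 4195 genes. Of 6 members tested, 4 were higher in arterial cells, where 12.3% of genes were called (7.49% higher, 4.86% lower). By edgeR none was called in capillary cells, where 26.7% were (13.7% and 13%), and 2 were lower in venular cells, where 29.6% were (16.8% and 12.8%). Notch3 and Notch4 passed the filter on low counts only with the arterial sums, where they are high. Their place among the arterial calls, and that of Notch4 among the venular ones, was thus in part set by the filter. Dll4 had 157.1 and 227.5 CPM in arterial, 88.5 and 90.3 CPM in capillary and 28.9 and 7.26 CPM in venular cells. These ranges did not overlap, and the order was arterial, capillary, venular in both libraries. The difference was 2.28 ± 0.32 for arterial cells (log2, adjusted p = 5.62e-06) and -2.94 ± 0.42 for venular cells (3.06e-06).

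Notch4 followed the same order, with 64.3 and 43.9, 34.3 and 38.7, and 4.81 and 3.63 CPM (1 UMI in each venular sum). It was lower in venular cells (-3.26 ± 0.77, adjusted p = 0.00166) and higher in arterial cells (1.95 ± 0.60, adjusted p = 0.028), the latter not against the summed cells of the other subtypes (0.86, adjusted p = 0.321) nor with DESeq2 (0.242). Notch3 had 92.9 and 43.9 CPM in arterial, 5.42 and 16.8 CPM in capillary and 24.0 and 3.63 CPM in venular cells, and was higher in arterial cells (2.28 ± 0.61, adjusted p = 0.0106, or 0.0957 with DESeq2). In endothelial cells without a mural marker, where the excess of the whole endothelial type was lost, arterial Notch3 did not pass the filter on low counts. Jag1, at 107.1 and 67.8 CPM in arterial cells and 29.7 to 48.1 CPM in the others, was called higher in arterial cells at an adjusted p of 0.049, and this was lost under 6 of 10 alternatives.

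Notch1 and Dll1 had no call along this axis. Notch1 had 128.6 and 183.6 CPM in arterial, 119.2 and 131.6 CPM in capillary and 115.4 and 170.7 CPM in venular cells, and its arterial difference of 0.16 had an interval of -0.34 to 0.65. Dll1 lay between 50.3 and 64.3 CPM in all 6 sums. With 1 common mean of the other subtypes the 4 arterial calls were lost (adjusted p of 0.49 to 0.844), while both venular calls held, that of Dll4 at an adjusted p of 0.05 after rounding. Leaving out total muscle 1 or 2 gave arterial Dll4 differences of 3.04 and 1.53 and venular ones of -4.20 and -2.003, with no test. Notch2 and Jag2 were not tested, and Jag2 had 10 and 14 UMIs in capillary, 3 and 1 in arterial and none in venular cells.

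Of 15 pathway genes tested, the 3 targets were all lower in venular cells, and their highest subtype differed. Hey1 was at 135.7 and 131.7 CPM in arterial and 14.4 and 7.26 CPM in venular cells (venular -3.18 ± 0.48, arterial 2.16 ± 0.36). Nrarp was at 314.3 and 275.4 CPM in arterial and 4.81 and 83.5 CPM in venular cells (-2.56 ± 0.36). Hes1 was highest in capillary cells, at 1568 and 1310 CPM (1.37 ± 0.14), and lowest in venular cells, at 346.2 and 370.5 CPM (-1.63 ± 0.17). Among the mural cells only Notch3 could be tested between subtypes. It had 296.7 and 222.3 CPM in pericytes and 265.3 and 128.5 CPM in smooth muscle cells, a difference of -0.63 (95% interval -1.84 to 0.59, adjusted p = 0.518) where 5.1% of 764 genes were called, 2.36% higher in smooth muscle cells and 2.75% lower.

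**Figure D5:**
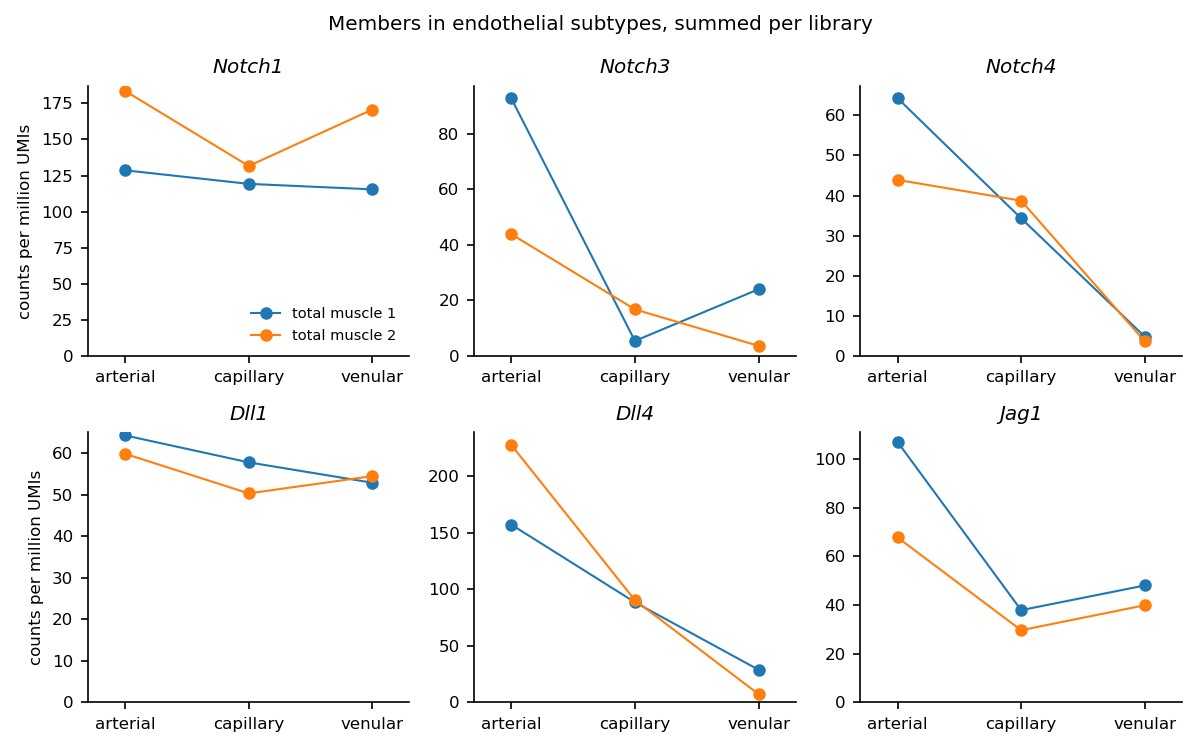
Level (CPM) of 6 members in arterial, capillary and venular endothelial cells of the 2 total muscle libraries, 1 line per library. Dll4 and Notch4 fall from arterial to venular cells in both libraries (Dll4 157.1 and 227.5 to 28.9 and 7.26 CPM), while Dll1 stays between 50.3 and 64.3 CPM.

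The genes whose pattern over the 10 types was most like each member were ranked by Pearson correlation of log2(CPM + 10), among 6216 genes of at least 50 CPM in a type. These are descriptions over 10 types that share 2 libraries. Dll4 was most like the endothelial genes Gpr4 (0.994), Robo4 (0.994) and Grrp1 (0.993). Notch4 was most like Sema7a (0.992), Gata2 (0.985) and Dysf (0.985), and Dll1 like Parvb (0.978), Pparg (0.948) and Cd93 (0.939), all with their highest level in endothelial cells. Notch3 was most like Rgs4 (0.971), Lin7a (0.966) and S1pr3 (0.961), which were highest in mural cells. Notch1 was most like Gm11713 (0.970), Pik3c2a (0.933) and Ppp1r10 (0.928), Jag1 like Gclc (0.938), Raph1 (0.920) and Sash1 (0.896), and Notch2 like Scpep1 (0.908), Emp3 (0.884) and Plp2 (0.882). Jag2 had too few UMIs for this ranking.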

How the data were processed

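The authors deposited UMI counts by gene and barcode, which per the file headers are integers and were not normalized. The submitters' processing notes name the tools Seurat 2.3.4, Cell Ranger 2.2.0 and bcl2fastq 2.17.1 and the build mm10; how reads were assigned to genes is not given in the sources used here. Members and gene lists were chosen with earlier results of these data known. Cells with at least 200 genes and at most 10% mitochondrial UMIs were kept. Scrublet called only 61 doublets, so the 322 cells with the highest scores were left out (0.8% for every 1000 cells of a library). Clusters (scanpy 1.11.5, Leiden) were named myogenic from fixed markers. Total muscle cells were gated by at least 2 markers of a type and 1 more than of any other type. A marker counted in a cell if its share of the cell's UMIs lay above the mean over total muscle cells. For the vascular subtypes that mean was taken over the endothelial or the mural cells. Counts were summed per library and tested with edgeR 4.0.16 (TMM, filterByExpr, quasi-likelihood, Benjamini-Hochberg adjusted p under 0.05). DESeq2 1.42.0 and the other alternatives are in the closing section, 71 listed at the outset and 11 chosen after seeing the data, among them removal of the haemoglobin cluster or of vascular cells with mixed markers. A cell type was to be tested against the mean of the other types' log levels, but types with no UMI of a gene made that mean meaningless, so the other types' counts were summed; this change was made after seeing the data. Floors are 3 counts; floors and 95% intervals of a count cover counting error only. Named are all members, up to 3 called pathway genes per role and comparison with the highest mean CPM, and the 3 genes most like each member; some pathway genes are not reported here. Statistics were tested on simulated data.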

Additional observations from a re-analysis of the deposited data

Results flagged for a closer look

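In the injured libraries a few cells passed the gate for macrophages or monocytes, 25 and 30 cells, although these libraries were sorted for MuSCs and enter no cell type comparison. Notch2 was at 514.2 and 611.4 CPM in them (45 and 37 UMIs), a mean of 562.8 CPM, against 79.5 and 123.9 CPM in the macrophages or monocytes of total muscle. Jag1 was at 194.2 and 297.5 CPM (17 and 18 UMIs), a mean of 245.9 CPM, against 26.5 and 61.9 CPM. These levels drew attention because they lie in cells no comparison uses and above the same type in uninjured muscle. The myogenic cells of the same injured libraries had 236.8 and 382.2 CPM of Notch2 and 24.8 and 25.9 CPM of Jag1. The other 6 members had no UMI in the macrophages or monocytes of the injured libraries, whose sums held 87517 and 60513 UMIs. Among these, Notch1 was at 41.2 and 47.1 CPM in the macrophages or monocytes of total muscle. Notch2 thus lay higher and Notch1 lower in the injured libraries, as in myogenic cells, while Jag1 lay higher, unlike there. These differences were not tested.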

How the results depend on the processing

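Of the members' values under each alternative, 74 of 75 kept their call, and their direction where called, in the injury comparison, 54 of 60 in the sort comparison, 81 of 83 and 77 of 83 for myoblasts against injured and homeostatic cells, 473 of 589 by cell type, 161 of 186 by endothelial subtype and 44 of 45 by Myog state; the cause of the changes was not tested. Calls over all genes moved more. The sort comparison (672) had 388 calls with DESeq2, 412 among GC-rich barcodes, 368 with thinned counts and 270 to 813 leaving out a library, with 397 without total muscle 1 and 270 without total muscle 2. Myoblasts against injured cells (7399) had 4625 with DESeq2 and 4798 with thinned counts. Over all cell types 40602 gene-by-type calls became 2915 with 1 common mean of the other types and 20267 with DESeq2. Endothelial subtypes (2883) had 357 with 1 common mean, 1069 with DESeq2 and 1586 without cells holding a mural marker. Mural subtypes (39) had 128 without scaling, 19 with DESeq2, 89 without shared barcodes and 102 without the filter. By edgeR they had 0 under the stricter gate (155 of 590 genes at an unadjusted p under 0.05) and 0 without endothelial markers (17 of 114), against 19 by DESeq2. The Myog comparison (1070) had 441 with Myog taken from all UMIs, 613 in injured cells alone, 654 with DESeq2, 1936 without the filter and, by edgeR, 0 without the library block (480 at an unadjusted p under 0.05). Counted in these, or given with no test, are 65 values that changed sign without a call in either setting, such as Notch1 by Myog state, at -0.34 in injured cells alone. With a call in either setting, directions turned for Notch3 in myoblasts against injured cells without scaling (0.63), for macrophage Dll1 under the stricter gate (-8.37) and, against the mean of log levels, for fibro-adipogenic Notch3 (0.30), B cell Notch2 (1.31) and Notch4 (0.45) and T or NK cell Dll1 (0.63). Without scaling the split of higher and lower calls moved from 2863 and 3076 to 1790 and 4672 in fibro-adipogenic cells, from 1777 and 2160 to 1192 and 3097 in tenocytes, from 1542 and 1945 to 1186 and 2584 in macrophages or monocytes, from 411 and 825 to 581 and 479 in glial cells and from 1288 and 1765 to 1079 and 2644 in mature myofibres. The replicate numbers do not pair the samples (correlation of same-numbered deviations -0.03 for injury and 0.22 for the sort, over 2 pairs); with a replicate block the injury comparison had 7926 calls and the sort comparison 986, and no member's call changed. Total muscle, with 341824 and 444958 myogenic UMIs, limits the sort comparison: a count of 0 there allows up to 8.78 and 6.74 CPM.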

Other observations

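In fibro-adipogenic cells the 3 tested of 7 non-canonical ligands on the pathway list were higher than in the other cells. Mfap5 (log2 4.83 ± 0.06 against the other cells), Mfap2 (2.27 ± 0.12) and Dlk1 (5.95 ± 0.29), an inhibitory ligand homologue, rose above the other cells, beside 15 of 36 pathway genes higher and 13 lower where 64.4% of all genes were called. Mfap2 was also higher in tenocytes (1.45 ± 0.13), while Mfap5 was lower (-1.57 ± 0.11).

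B cells and T or NK cells shared directions for several pathway genes. Lfng, a Fringe enzyme, was higher in both (2.18 ± 0.18 and 2.10 ± 0.22), as was the ubiquitin ligase Neurl3 (1.57 ± 0.16 and 1.90 ± 0.17), and Hes1 was lower in both (-2.73 ± 0.12 and -4.56 ± 0.19). In mature myofibres Neurl1a, which moved with Myog in myogenic cells, was the 1 pathway gene of 36 that was higher (7.08 ± 0.98).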
